A study of Mus musculus with 5 samples.

Results

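KRAB zinc finger gene clusters are stretches of the mouse genome in which many copies of genes for KRAB zinc finger proteins lie side by side. Regions of this kind were followed here in Hi-C data from hippocampal neurons, 4 in all: chromosome 2 from 175000001 to 177500000, chromosome 4 from 145000001 to 147300000, chromosome 13 from 62000001 to 63200000 and chromosome 13 from 64500001 to 68000000, in the build mm9. They are called the chromosome 2 cluster, the chromosome 4 cluster, and the first and the second chromosome 13 cluster. Their members are the 50 kb bins that lie inside these borders and hold a value in all 5 libraries, which gave 104 of 47652 bins analysed: 10, 27, 24 and 43 in the order above. The borders are positions, and a bin enters by having a value in every library, not by the size of that value. This left out 35 of the 139 cluster bins that any library listed.

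KRAB zinc finger proteins bind DNA through an array of zinc fingers and recruit the corepressor TRIM28 through their KRAB domain, which leads to histone H3 lysine 9 trimethylation and silencing. Many of them bind transposable elements. Their gene clusters grew by repeated local duplication, differ in copy number between mouse strains, and often carry lysine 9 trimethylation themselves. Among the genes of these clusters, Rsl1 and Zfp429 (also called Rsl2) are regulators of sex-limited liver genes.

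Hi-C measures which pieces of DNA lie close together in the nucleus. Neuronal nuclei were sorted from mouse hippocampus after staining for NeuN and GFP, and libraries were made from 100000 nuclei per group, collected from 2 animals, per the labels. All mice were ArcCreERT2 x R26R-STOP-floxed-eYFP with genotype +/+, a cross in which a tamoxifen-dependent Cre under the control of Arc, a gene switched on by neuronal activity, leaves active neurons labelled with a yellow fluorescent protein. The titles give 3 groups, Basal (2 libraries), Early (1 library) and Late (2 libraries). All 5 libraries carry the same treatment label (foot shock on day 0, collection on day 0, no recall), while the protocol describes 4-hydroxytamoxifen 1 h before fear conditioning and collection either 1.5 to 2 h after it or, following 48 h in a dark room, 5 days after it, so the names of the groups are taken only as far as the titles give them. Which sorted population entered each library is not stated, and no marker of cell type can be read from these files. The protocol calls the replicates biological, without tying a library to its animals, and 1 library of Early was analysed here. The p-values below rest on the spread within the Basal and within the Late libraries, and on spread borrowed across all bins. They measure no spread between Early libraries.

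The measurement is PC1, the first principal component of the interaction matrix, a signed score. Compartment A, with open and gene-rich chromatin, usually takes the positive sign, and compartment B, closed and gene-poor, the negative one. The sources used here do not say how the sign was set. A difference is given in PC1 units and was tested per bin with limma over all 47652 bins, with Benjamini-Hochberg adjustment, and "called" means an adjusted p under 0.05. The depth of the libraries is unknown. Chromosome 7 was left out of the fit, since the Late libraries had r of -0.976 with each other there. Results given for every sequence as deposited put it and other sequences left out back into the fit. Early stood apart on chromosome 13: its r with the Basal libraries was 0.847 and 0.855 there, the third lowest of 18 autosomes, against a median of 0.923.

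In the gene order of RefSeq on GRCm38.p6, 32 coding genes lie between Edn3 and Phactr3, the genes taken as neighbours of the chromosome 2 cluster. Of these, 9 carry a Zfp symbol (such as Zfp931, Zfp967 and Zfp973) and 22 only a Gm or LOC symbol. Between Tnfrsf8 and Miip on chromosome 4 lie 19 coding genes, of which 17 are Zfp genes or Rex2. Between Gm9595 and Fbp2 on chromosome 13 lie 9, among them Zfp808, Zfp934 and Zfp935. Between Fam240b and Mtrr lie 53, of which 27 carry a Zfp or Rsl symbol. That last interval opens with genes of other kinds (Cntnap3, Spata31, Prss47, Mfsd14b, Nlrp4f), holds mostly Gm genes in its middle, and ends with a dense row from Zfp712 past Rsl1 and Zfp429 to Zfp273. These positions belong to another build than the PC1 bins, so no gene was placed in a bin.

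The promoters of these genes show how alike some of the copies are. The sequences below are the 150 bases before the start of the gene, 5′ to 3′ on the gene's strand, from RefSeq on GRCm38.p6. Capitals in the first mark the motif CCAATCAG. In the Rsl1 and Zfp429 pair they mark the 9 bases at which the promoters differ. The promoters of Gm14434 and Gm14308 on chromosome 2, both on the minus strand, have the same letters. So do those of Zfp600 and Rex2 on chromosome 4, both on the plus strand, for the first of 2 promoters that the table lists for Zfp600. The second differs from it.
Gm14434 and Gm14308: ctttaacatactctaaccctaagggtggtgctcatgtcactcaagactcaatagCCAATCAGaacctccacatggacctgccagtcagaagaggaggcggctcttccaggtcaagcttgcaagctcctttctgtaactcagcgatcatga
Zfp600 and Rex2: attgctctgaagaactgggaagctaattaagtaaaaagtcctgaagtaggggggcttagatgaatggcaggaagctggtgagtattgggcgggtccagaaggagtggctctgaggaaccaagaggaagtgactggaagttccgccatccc
Rsl1: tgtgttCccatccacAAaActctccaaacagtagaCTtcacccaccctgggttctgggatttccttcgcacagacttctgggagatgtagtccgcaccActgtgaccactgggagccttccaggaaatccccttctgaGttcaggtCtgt
Zfp429: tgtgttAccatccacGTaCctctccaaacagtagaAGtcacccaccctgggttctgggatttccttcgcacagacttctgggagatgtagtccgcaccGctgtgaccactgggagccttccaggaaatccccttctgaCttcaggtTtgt

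Rsl1, on the plus strand, and Zfp429, on the minus strand, have the same base at 141 of 150 bases (94.0%). Over the whole promoter windows (250 bases before to 50 after the start), the share of 31-base words that occur at another place among all promoters of the table was counted. In 31 of the 36 promoters of the chromosome 2 cluster (86.1%) at least 50% of the words were repeated in this way. The same held for 5 of 17 on chromosome 4 (29.4%), 1 of 8 in the first chromosome 13 cluster (12.5%) and 6 of 46 in the second (13%), against 4.54% of all 32851 promoters. The median share of repeated words was 97.6% on chromosome 2 and 33.7% on chromosome 4. It was 26.7% in the first chromosome 13 cluster and 1.67% in the second. All coding genes between the neighbours entered the counts of promoters, also genes of other kinds. Genes with a Zfp or Rsl symbol or Rex2 held 9 of the 36 promoters on chromosome 2 and 16 of 17 on chromosome 4. They held 2 of 8 in the first chromosome 13 cluster and 24 of 46 in the second. No shares were computed for them alone. The clusters also differed in their letters. CCAATCAG, searched on both strands as CCAATCAG and CTGATTGG, occurred in 31 of 36 promoters on chromosome 2 and in 7 of 8 in the first chromosome 13 cluster. It occurred in 0 of 17 on chromosome 4 and 1 of 46 in the second chromosome 13 cluster, and in 4.10% of all promoters. The motif was chosen after these sequences had been seen, and copies of 1 gene are not independent of each other.

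Bins without a value were common in 3 of the 4 clusters. The clusters hold 190 positions of 50 kb, of which the Basal libraries lacked 52 each, Early 86, and Late replicates 1 and 2 lacked 75 and 76. In the flanks of 2 Mb on both sides, Early lacked 2 of 266 positions and the other libraries none. The chromosome 2 cluster was nearly empty: the Basal libraries lacked 37 of 50 positions each, Early 40 and each Late library 39. A stretch of 1750 kb there, from 175050001 to 176800000, held no bin in all 5 libraries. The chromosome 4 cluster lacked 10 of 46 positions in each Basal library against 19 in Early, with 16 and 17 in the Late libraries. The second chromosome 13 cluster lacked 5 of 70 in each Basal library, 27 in Early and 20 in each Late library, with a stretch of 1150 kb from 65500001 to 66650000 without a bin in all 5. The first chromosome 13 cluster was complete in every library.

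**Figure D1:**
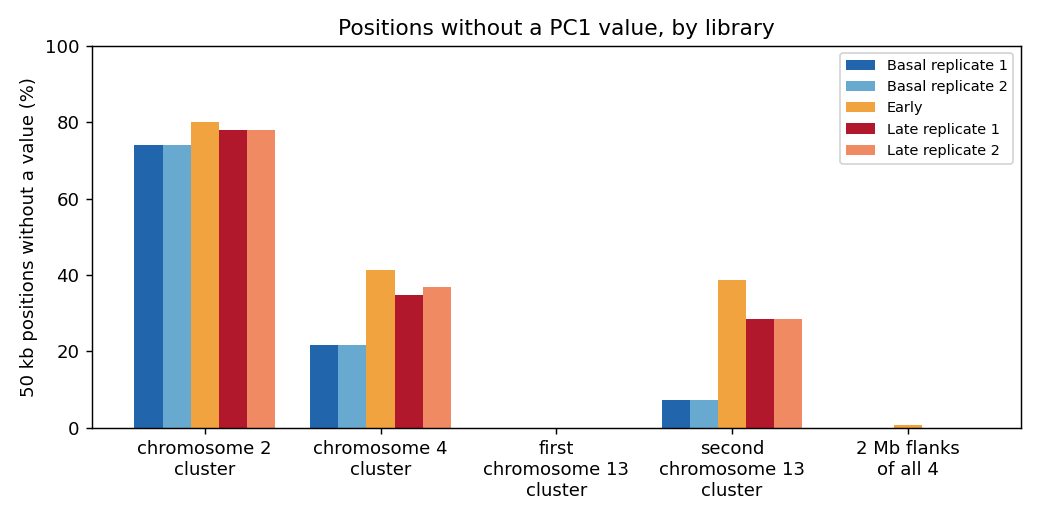
Share of 50 kb positions without a PC1 value (%) in each cluster and in the 2 Mb flanks of all 4, with 1 bar per library. The first chromosome 13 cluster has no missing position, and Early has the tallest bar in the other 3 clusters, from 27 of 70 positions in the second chromosome 13 cluster to 40 of 50 in the chromosome 2 cluster.

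The missing bins were nested. Of 137 cluster bins listed in both Basal libraries, Early lacked 33, Late replicate 1 lacked 22 and Late replicate 2 lacked 23, and 20 were absent from all 3. No cluster bin that Early listed was absent from another library. Over the analysed chromosomes, Early lacked 216 bins that some library listed, and 35 of these (16.2%) lay in the clusters. For Late replicates 1 and 2 the shares of lacking bins that lay in the clusters were 16.6% (24 bins) and 15.4% (25 bins), and for the Basal libraries 1 of 12 and 1 of 14. The bins that others lacked were close to the complete ones in Basal: the 22 bins of the second chromosome 13 cluster that both Basal libraries listed and others lacked had mean PC1 of -0.88 in each Basal library, and the 43 complete bins -0.85 and -0.92. In the chromosome 4 cluster 9 such bins had means of -0.97 and -0.95, and the 27 complete bins -0.84 and -0.83. The part of duplicated sequence or of depth in the missing bins was not tested.

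**Figure D2:**
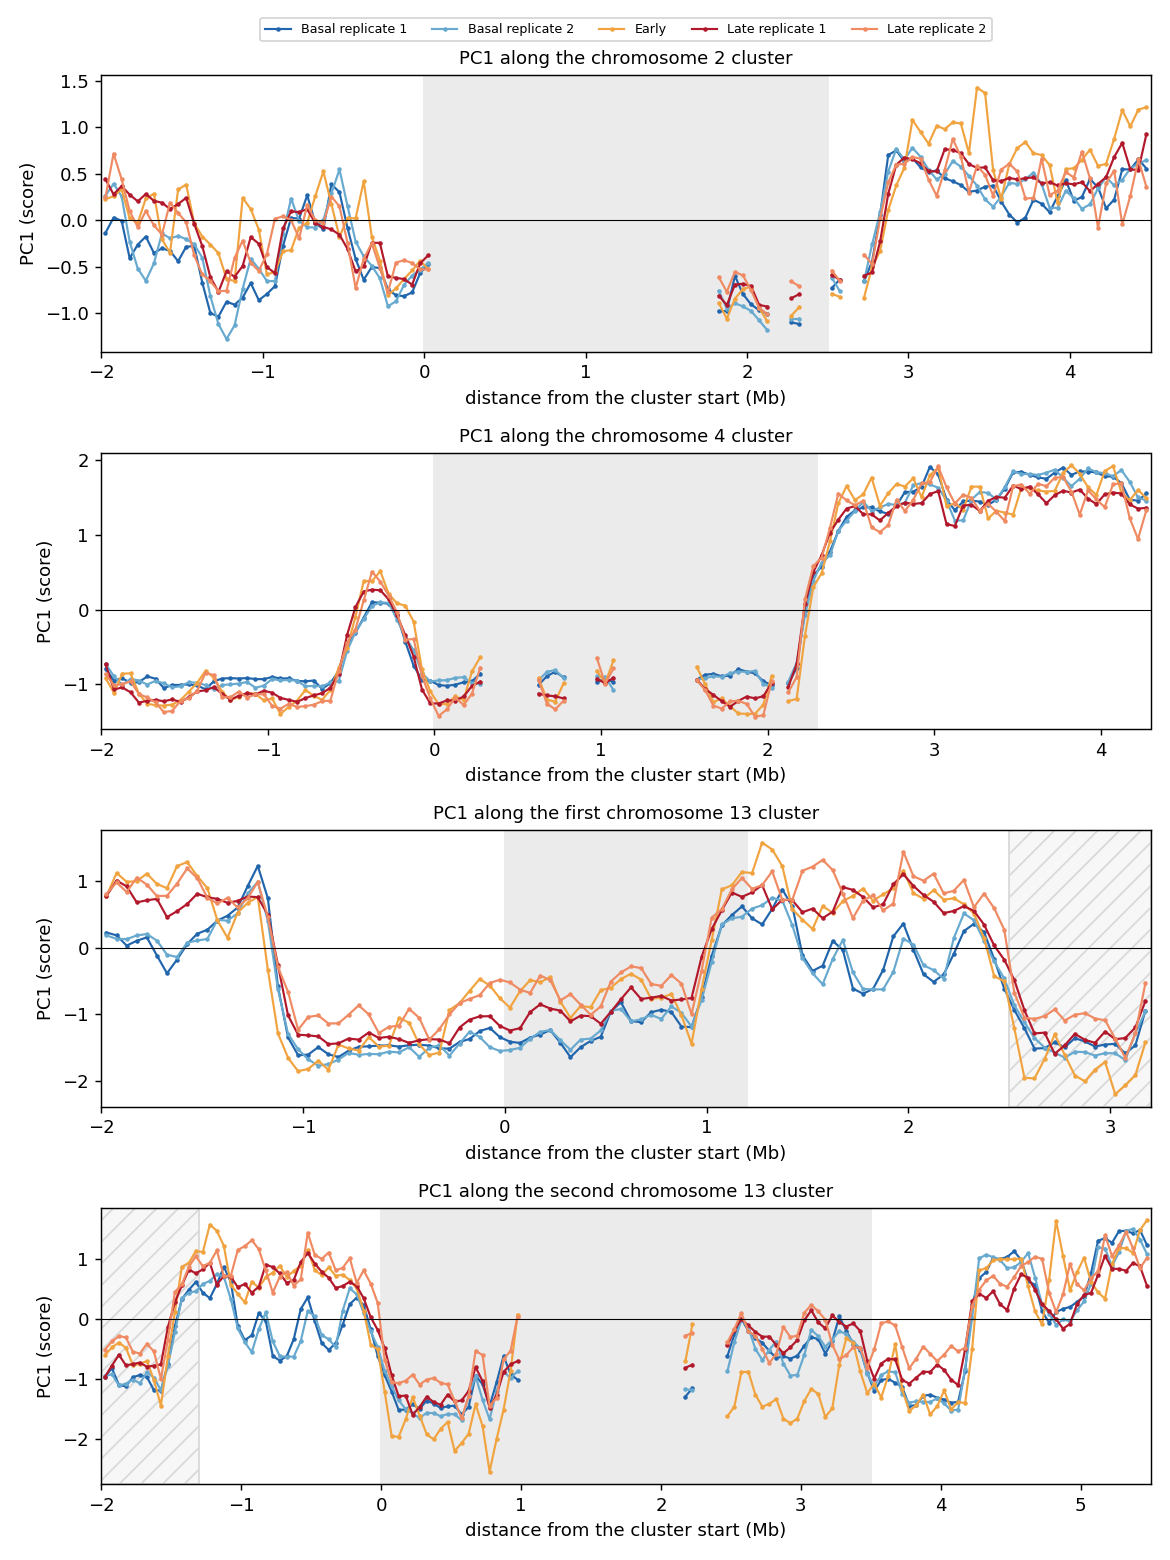
PC1 (score) of each 50 kb bin with a value in all 5 libraries, against distance from the cluster start (Mb), with 1 line per library. Grey marks the cluster, hatching the other chromosome 13 cluster, and gaps are bins missing in at least 1 library. In the second chromosome 13 cluster the Early line lies below the other 4 over most of the cluster, among them 16 neighbouring bins right of the long gap.

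The clusters lay in compartment B. Of the 104 bins, 6 and 4 were in A in the Basal libraries against 6 in Early, with 8 and 11 in Late replicates 1 and 2. In all 5 libraries 91 bins (87.5%) were in B, against 42.4% of all bins analysed and 89 of 264 flank bins (33.7%). The few A bins of the chromosome 4 cluster and the first chromosome 13 cluster sat at the right edge, where PC1 climbed into a neighbouring A domain. On chromosome 4 that neighbour was high, with means over the right flank of 1.54 in both Basal libraries against 1.54 in Early, with 1.41 and 1.44 in Late. The B stretches ran past some borders: bins below 0 in all 5 libraries reached without a break among listed bins from 60850001 to 63000000 around the first chromosome 13 cluster, and from 174650001 to 177800000 on chromosome 2.

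Mean PC1 of the clusters was similar in Basal, at -0.89 and -0.93 on chromosome 2, -0.84 and -0.83 on chromosome 4, -0.95 and -0.95 in the first chromosome 13 cluster and -0.85 and -0.92 in the second. In all 5 libraries each cluster lay below the mean of its own flanks. Cluster minus flank was -0.81 and -0.91 in Basal on chromosome 2, -1.22 and -1.20 on chromosome 4, -0.51 and -0.48 in the first chromosome 13 cluster, and -0.90 and -0.94 in the second. On chromosome 4 the difference came from the right side, since the left flank had means of -0.78 and -0.80 in Basal, against -0.84 and -0.83 in the cluster. In the first chromosome 13 cluster the right side also weighed more. Cluster minus left flank was -0.25 and -0.20 in Basal there, against -0.91 in each for the right flank. By median its left flank lay below the cluster in Basal (-1.30 and -1.32 against -1.15 and -1.09). With 2 against 2 libraries, or 2 against 1, a permutation test cannot go below an exact 2-sided p of 0.33. The means of clusters are therefore given without a p.

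**Figure D3:**
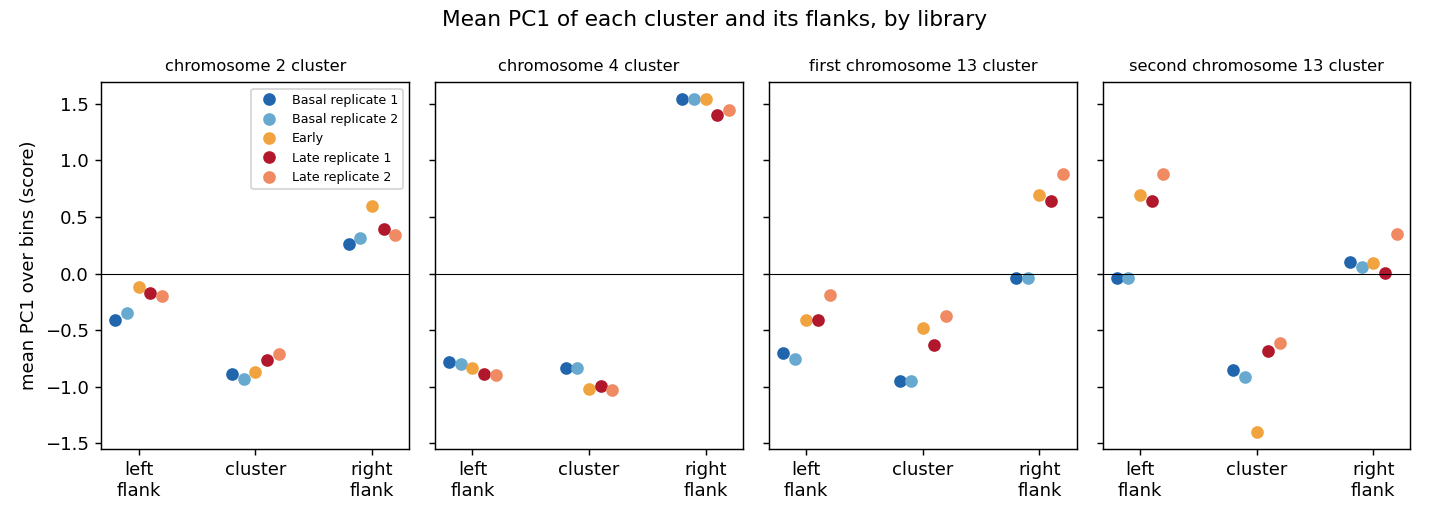
Mean PC1 (score) over bins of each cluster and of its left and right 2 Mb flank, with 1 point per library. Each cluster lies below 0 in every library, and the Early point of the second chromosome 13 cluster, at -1.40, lies below all others in the plot.

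The second chromosome 13 cluster differed more from Basal in Early than in Late. Its mean PC1 was -0.85 and -0.92 in Basal against -1.40 in Early, with -0.68 and -0.61 in Late. Early lay deeper in B than every other library, and both Late libraries lay above both Basal libraries. Early was the lowest of the 5 libraries in 35 of the 43 bins (81.4%), against 28.9% of all bins analysed. In the cluster's own flanks limma called 24 of 66 bins (36.4%) for Early versus Basal, 20 higher and 4 lower. In the cluster it called 25 of the 43 bins, 23 lower and 2 higher, against a background of 19.9% of all bins (9.98% lower and 9.97% higher). With every sequence of the files fitted as deposited 7 bins were called, all lower, and without Basal replicate 1 or 2 the lower calls were 16 and 18.

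Runs of called bins may bridge 1 bin that was not called, and their means cover the called bins only. Most of the Early calls lay in an unbroken run of 16, chromosome 13 from 66950001 to 67750000, right of the long stretch of missing bins. PC1 in the run averaged -0.43 and -0.50 in Basal against -1.39 in Early, with -0.21 and -0.21 in Late. The mean difference of Early from Basal was -0.93, with a median SE of 0.15 and a limma adjusted p of at most 0.014. The largest fall was at 67000001 to 67050000, with -0.25 and -0.38 in Basal against -1.46 in Early, with -0.18 and -0.16 in Late (difference -1.14, SE 0.14, limma adjusted p = 0.0022). None of the 5 bins right of the run was called. In the first of them, at 67750001 to 67800000, PC1 was 0.044 and -0.20 in Basal and -0.76 in Early (difference -0.68, limma adjusted p = 0.079), and in the third, at 67850001 to 67900000, it was -0.42 and -0.38 in Basal and -0.40 in Early. In the last 2, Early was again below Basal, by differences of -0.37 and -0.33. All 16 bins were also called, and lower, after quantile normalization, with chromosome medians set to 0, with a 10 Mb running mean removed, with a trend in the prior, with a replicate block and without either Late library. With every sequence as deposited 5 of the 16 were called, and without Basal replicate 1 or 2, 13 and 14.

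Left of the missing stretch Early was also low. In the 20 bins from 64500001 to 65500000 the means were -1.27 and -1.35 in Basal against -1.67 in Early, with -1.17 and -0.97 in Late, and 7 bins were called lower and 1 higher in Early. The called run there, from 65250001 to 65400000, averaged -1.04 and -1.25 in Basal and -2.02 in Early (mean difference -0.88, median SE 0.15, limma adjusted p at most 0.017). Over the whole cluster 20 bins of Early were below -1.5 (46.5%), against 5.79% of all bins of that library. The Basal libraries had 3 and 10 such bins in the cluster and the Late libraries 1 each.

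The 2 bins that went the other way lay beside missing bins. At 66700001 to 66750000 PC1 was -1.16 and -1.19 in Basal against -0.088 in Early, with -0.76 and -0.23 in Late (Early minus Basal 1.09, SE 0.21, limma adjusted p = 0.0099). At 65450001 to 65500000, the last bin before the stretch without values, it was -1.01 and -0.87 in Basal against 0.077 in Early, with -0.70 and 0.042 in Late (Early minus Basal 1.02, limma adjusted p = 0.029). Over the 4 bins of this cluster next to a missing bin the means were -1.02 and -1.03 in Basal against -0.58 in Early, with -0.68 and -0.21 in Late, so Basal was lowest. Over the other 39 bins they were -0.84 and -0.91 in Basal against -1.48 in Early, with -0.68 and -0.65 in Late, so Early was lowest. Without the 4 bins the difference of Early from Basal was -0.61 for the cluster, against -0.51 with them.

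**Figure D4:**
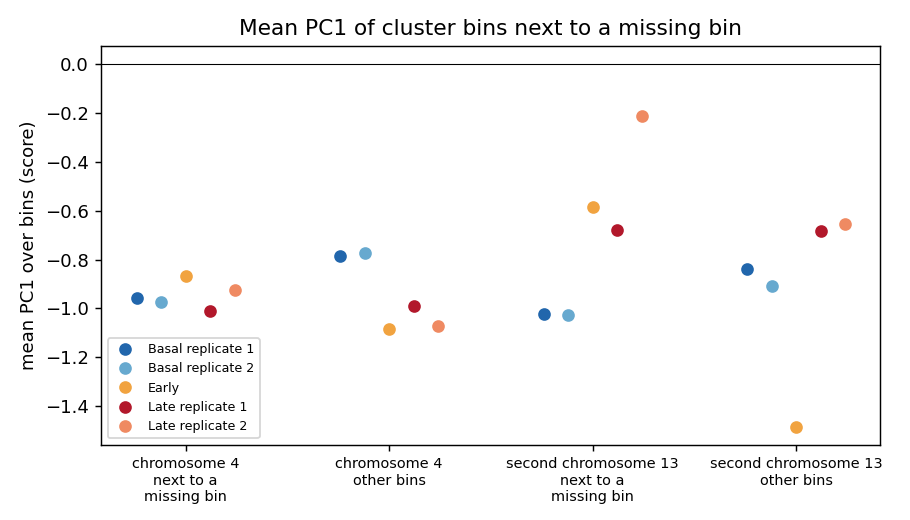
Mean PC1 (score) over bins next to a missing bin and over the other bins, in the chromosome 4 cluster and the second chromosome 13 cluster, with 1 point per library. On chromosome 13 Early is at -0.58 next to missing bins and at -1.48 elsewhere, while the Basal libraries lie between -0.84 and -1.03 in both.

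A like split held on chromosome 4. The 8 cluster bins next to a missing bin had means of -0.96 and -0.97 in Basal against -0.87 in Early, with -1.01 and -0.92 in Late. The other 19 bins had -0.79 and -0.77 in Basal against -1.08 in Early, with -0.99 and -1.07 in Late. In both clusters the bins at the rim of missing stretches were the lower ones in Basal and the higher ones in Early. On chromosome 2 this did not hold: 5 rim bins had means of -0.93 and -0.90 in Basal and -0.89 in Early, and the other 5 bins -0.85 and -0.96 in Basal and -0.86 in Early. Over the analysed chromosomes, 184 bins in B in both Basal libraries lay next to a missing bin. Their means were -0.79 and -0.78 in Basal against -0.63 in Early, with -0.55 and -0.43 in Late, whereas 24102 other B bins had -0.85 in each Basal library against -0.77 in Early, with -0.82 and -0.80 in Late. What sets the rim apart was not tested.

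Late, compared with Early, was higher in the second chromosome 13 cluster. Of its 43 bins 28 were called for Late versus Early, all higher in Late, against a background of 12.7% (6.28% higher and 6.44% lower). In the cluster's own flanks 14 of 66 bins (21.2%) were called, 8 higher and 6 lower. The run from 66950001 to 67750000 was called in all 16 bins, with a mean difference of 1.18 (median SE 0.15, limma adjusted p at most 0.022). A further run from 65000001 to 65400000, with 7 called bins, averaged -1.91 in Early, and -1.15 and -1.03 in Late (mean difference 0.82, limma adjusted p at most 0.028). One from 64500001 to 64650000 averaged -1.71 in Early and -0.91 and -0.93 in Late. In the other clusters 1 bin was called, in the first chromosome 13 cluster. With every sequence as deposited no bin of the cluster was called in this comparison. Both comparisons use the same Early library, which has no replicate here.

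Fewer bins of this cluster were called for Late versus Basal. In limma 5 of 43 bins were called, all higher in Late, against a background of 16.4% (8.78% higher and 7.63% lower). In the cluster's own flanks 29 of 66 bins (43.9%) were called, 25 higher and 4 lower. The run from 67500001 to 67700000, with 3 called bins, went from -0.44 and -0.41 in Basal to -0.0090 and 0.11 in Late, with Early at -1.39 (mean difference of Late from Basal 0.48, median SE 0.12, limma adjusted p at most 0.043). The largest rise was in the bin at 66650001 to 66700000, beside a missing bin, from -1.29 and -1.17 in Basal to -0.81 and -0.28 in Late (difference 0.69, SE 0.17, limma adjusted p = 0.032). Without Basal replicate 1, without Basal replicate 2 or with every sequence as deposited none of these bins was called. With a 10 Mb running mean removed no bin was higher and 1 was lower, and the mean difference of Late from Basal over the cluster turned from 0.24 to -0.080. Without Late replicate 1 the count was 22, of which 20 were higher.

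The first chromosome 13 cluster was closer to A in Early than in Basal. Its mean PC1 was -0.95 and -0.95 in Basal against -0.48 in Early, with -0.63 and -0.37 in Late, so Early and both Late libraries lay above both Basal libraries. For Early versus Basal 12 of 24 bins (50%) were called, all higher, against 19.9% of all bins (9.97% higher) and 34 of 66 bins (51.5%) in the cluster's own flanks. The run from 62050001 to 62500000, with 8 called bins, averaged -1.38 and -1.35 in Basal against -0.67 in Early, with -1.01 and -0.72 in Late (mean difference 0.70, median SE 0.16, limma adjusted p at most 0.041). Its largest rise was at 62100001 to 62150000, where PC1 was -1.35 and -1.37 in Basal and -0.49 in Early (difference 0.87, SE 0.16, limma adjusted p = 0.0085). A run at the A edge, from 63050001 to 63200000, was already in A in Basal at 0.48 and 0.42 and was at 0.99 in Early. Without Basal replicate 1 or Basal replicate 2 1 bin was called, with chromosome medians set to 0 there were 4, with a 10 Mb running mean removed 5, and with every sequence as deposited 0.

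In Late, 10 of the 24 bins (41.7%) were called against Basal, all higher, beside 16.4% of all bins (8.78% higher). Both Late libraries lay above both Basal libraries in 23 of 24 bins, against 30.1% of all bins analysed. The run from 62100001 to 62400000 averaged -1.41 and -1.36 in Basal, and -0.97 and -0.66 in Late (mean difference 0.58, median SE 0.14, limma adjusted p at most 0.046). The largest rise was at 62300001 to 62350000, from -1.65 and -1.54 in Basal to -1.11 and -0.70 in Late (difference 0.69, SE 0.15, limma adjusted p = 0.019). The Late replicates lay apart by 0.26 in the cluster mean, with replicate 2 higher. Without Late replicate 1 the count was 22 bins, without Basal replicate 1 or 2 it was 0, and with a 10 Mb running mean removed it was 0.

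The flanks of this cluster were also higher. Their mean was -0.44 and -0.47 in Basal against 0.023 in Early, with 0.00071 and 0.23 in Late. Cluster minus flank was -0.51 and -0.48 in Basal against -0.50 in Early, with -0.63 and -0.60 in Late. With both flanks, the Early value lay between the Basal ones and both Late values lay below them. In the flanks 29 of 66 bins were called for Late versus Basal, all higher, a share of 43.9% beside 41.7% in the cluster. The 26 flank bins between the chromosome 13 clusters, from 63200001 to 64500000, had means of -0.035 and -0.043 in Basal against 0.69 in Early, with 0.64 and 0.88 in Late. With these bins left out, cluster minus flank differed from Basal by 0.025 in Late and 0.16 in Early, whereas with them the differences were -0.12 and -0.0075.

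That stretch also borders the second chromosome 13 cluster, so in Early the step from it into the cluster was steep. Second cluster minus left flank was -0.82 and -0.88 in Basal against -2.09 in Early, with -1.32 and -1.49 in Late. Against its right flank the cluster stood at -0.95 and -0.98 in Basal against -1.49 in Early, with -0.69 and -0.96 in Late. In Early the contrast was larger than in Basal on both sides. In Late it was larger than in Basal on the left side, and on the right side 1 Late library lay above and the other between the Basal libraries.

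The chromosome 4 cluster lay deeper in B in Early and in both Late libraries than in Basal. Its mean PC1 was -0.84 and -0.83 in Basal against -1.02 in Early, with -0.996 and -1.03 in Late. Early and both Late libraries lay below both Basal libraries. For Late versus Basal 4 of 27 bins were called, all lower, and for Early versus Basal 3, all lower. The shares (14.8% and 11.1%) were below the background of 16.4% and 19.9%. They were above those of the cluster's own flanks, where 1 of 80 bins (1.25%) and 2 of 80 (2.5%) were called. The cluster bins called for Late versus Basal held a run of 3, from 146750001 to 146950000. It averaged -0.85 and -0.84 in Basal against -1.36 in Early, with -1.24 and -1.30 in Late (Late minus Basal -0.43, median SE 0.12, limma adjusted p at most 0.048). The largest fall in Early, at 146800001 to 146850000, was from -0.80 and -0.83 in Basal to -1.39 (difference -0.58, SE 0.14, limma adjusted p = 0.022). In Late it was at 146900001 to 146950000, from -0.86 and -0.82 to -1.19 and -1.43 (difference -0.47, SE 0.13, limma adjusted p = 0.039). Both Late libraries lay below both Basal libraries in 19 of the 27 bins, against 31.9% of all bins.

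The calls on chromosome 4 were few and rested on the settings. Without Basal replicate 1, without Basal replicate 2 or with every sequence as deposited, no bin of this cluster was called in either comparison. Without Late replicate 1 there were 10 lower bins in Late and 8 in Early, and without Late replicate 2 there were 2 and 8. With chromosome medians set to 0, Late had 14 lower bins and Early 13. With a 10 Mb running mean removed, Late had 0 and Early 1. The median of chromosome 4 was -0.27 in each Basal library against -0.059 in Early, with -0.12 and -0.067 in Late. The left flank, also in B, had means of -0.78 and -0.80 in Basal against -0.84 in Early, with -0.89 and -0.89 in Late.

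On chromosome 2, with 10 bins of 50, no bin was called in any comparison (limma; 2 bins at an unadjusted p under 0.05 for Late versus Basal, none for the others). The cluster mean was -0.89 and -0.93 in Basal against -0.87 in Early, with -0.76 and -0.71 in Late. All 10 bins were higher in the mean of Late than in that of Basal, with a median difference of 0.14 and a median SE of 0.12. The largest difference was at 177300001 to 177350000, with -1.11 and -1.06 in Basal against -0.93 in Early, with -0.79 and -0.71 in Late (difference 0.34, SE 0.12, limma adjusted p = 0.083). The flank mean was -0.083 and -0.024 in Basal against 0.23 in Early, with 0.10 and 0.067 in Late. Cluster minus flank was -1.10 in Early, below all other libraries (-0.91 to -0.78).

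**Figure D5:**
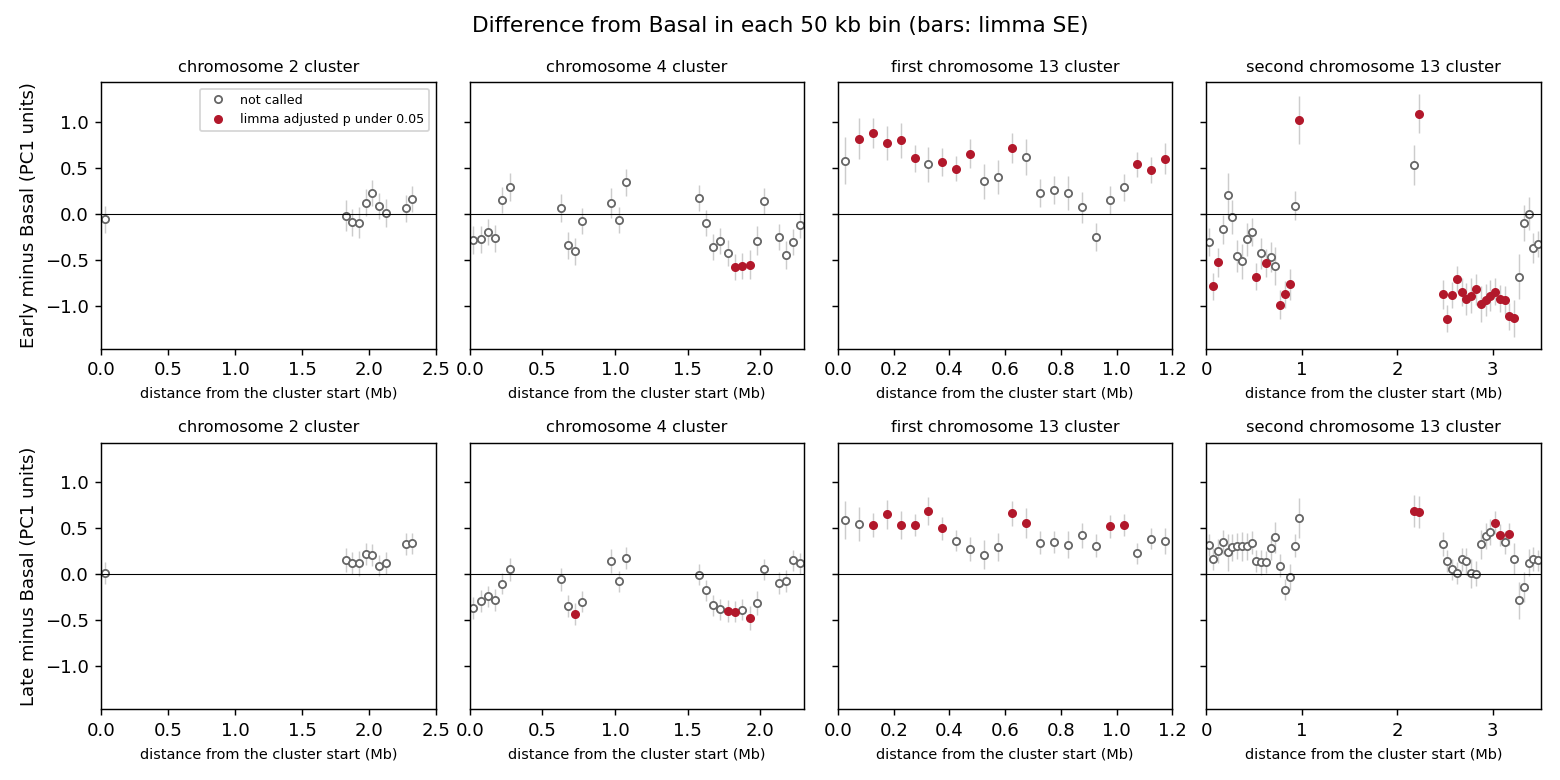
Difference of Early (upper row) and of Late (lower row) from Basal in PC1 units, for each cluster bin against distance from the cluster start (Mb), with limma SE as bars and called bins filled. In Early the called bins are higher in the first and mostly lower in the second chromosome 13 cluster, with 12 and 25 called. In Late they are higher in both, with 10 and 5.

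Over the 4 clusters together, 40 of 104 bins (38.5%) were called for Early versus Basal, 14 higher and 26 lower, beside 19.9% of all bins and 61 of 264 flank bins (23.1%). For Late versus Basal it was 19 bins (18.3%), 15 higher and 4 lower, beside 16.4% of all bins and 17.8% of flank bins. For Late versus Early it was 29 (27.9%), all higher in Late, beside 12.7% and 11.4%. Neighbouring bins are computed from overlapping windows and are not independent, so these shares are descriptions. The median difference over cluster bins was 0.17 (Late minus Basal), -0.15 (Early minus Basal) and 0.16 (Late minus Early). The split by direction depended on the scaling: with chromosome medians set to 0, Late versus Basal had 15 higher and 14 lower, and Early versus Basal 6 higher and 43 lower. The first and the second chromosome 13 cluster gave 12 and 25 of the 40 calls in Early. The comparisons of Early and of Late with Basal share the Basal libraries.

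Few cluster bins crossed from one compartment to the other. By sign in all libraries, 3 of 104 bins were in B in Basal and in A in Late, and none the reverse, beside 5.75% of all bins. They lay in the chromosome 4 cluster, the first and the second chromosome 13 cluster, 1 in each. In Early 2 bins were in A and in B in both Basal libraries, beside 9.78% of all bins, and again none went the other way. Between Early and Late 2 bins lay on opposite sides of 0, both in A in Late, beside 7.56% of all bins. In the flanks 18 of 264 bins were in B in Basal and in A in Late. The changes inside the clusters were thus mostly shifts within compartment B.

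The mean absolute difference between the Basal replicates was 0.095 in cluster bins and 0.13 in all bins, and between the Late replicates 0.22 and 0.20. The Late replicates were farther apart in the first and the second chromosome 13 cluster (0.29 and 0.26) than on chromosomes 2 and 4 (0.11 each). Steps between neighbouring bins were larger in the clusters than over all bins in every library. They were 0.16 against 0.15 in each Basal library, and 0.15 against 0.13 and 0.22 against 0.20 in Late. Early had the largest steps in both, at 0.26 in the clusters against 0.21 over all bins. In the second chromosome 13 cluster the mean step was 0.18 and 0.20 in Basal against 0.33 in Early, with 0.18 and 0.23 in Late.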

How the data were processed

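The authors deposited 1 table per library with a PC1 score for 50 kb bins, made with HOMER on mm9 per the submitters' processing notes. Aligner, read filters and versions are not named in the sources at hand. The 5 libraries were grouped by their titles. Autosomes and X were kept where every pair of libraries had r of at least 0.5, which left out chromosome 7. Bins listed in all 5 libraries entered 1 limma fit of the unscaled scores (limma 3.58.1, R 4.3.3) that held every library and had 2 residual and 6.6 prior degrees of freedom. Tests were 2-sided, and p-values were adjusted by Benjamini-Hochberg across 47652 bins, with a threshold of 0.05. Spread for Early, which has 1 library, is borrowed from the other groups. Flanks are 2 Mb on both sides without cluster bins. Missing positions were counted on the 50 kb grid. Single bins named are, per cluster, the largest rise and fall from Basal in Early and in Late, and runs are at least 3 called bins with a gap of at most 1. Other bins, segments and the bins beside missing ones were picked after their values were seen. Clusters and tests were chosen with earlier results of these data known. Sequences and gene order are from RefSeq on GRCm38.p6, by symbol, and neighbouring genes were set by hand. The fit was tested on simulated data with independent bins, a common spread and shifts in Late only, scored for Late versus Basal. The comparisons with Early were not tested in this way. Python 3.11.15, numpy 2.4.6 and pandas 2.3.3 did the rest. Alternatives were other scalings, bins, flanks and priors, a replicate block and leaving out libraries.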

Additional observations from a re-analysis of the deposited data

Results flagged for a closer look

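In mean PC1, the second chromosome 13 cluster had Early and Late on opposite sides of Basal. Its mean PC1 was -0.85 and -0.92 in the Basal libraries against -1.40 in Early, with -0.68 and -0.61 in the Late libraries, and Late minus Early was 0.752 PC1 units. It is listed because the Early library moved below both Basal libraries and each Late library moved above both. The difference between the mean changes was not tested. Cluster minus both flanks was -0.90 and -0.94 in Basal against -1.73 in Early, with -0.94 and -1.17 in Late. By that measure Late did not lie above Basal, whereas against the right flank alone Late minus Basal was 0.14. With a 10 Mb running mean removed, Late minus Basal was -0.080 for the cluster. For Late versus Basal 5 of 43 bins were called in limma (11.6%), beside 16.4% of all bins and 29 of 66 bins (43.9%) in the cluster's flanks. Per bin, 28 of 43 bins were called for Late versus Early in limma, beside 14 of 66 bins (21.2%) in the flanks. The Early state rests on 1 library.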

How the results depend on the processing

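The counts of called cluster bins moved most. Fitting every sequence as deposited includes chromosome 7, where the Late libraries had r of -0.976, and leaves the mean differences of the clusters unchanged. For Late versus Basal (19 bins) limma called 29 with chromosome medians set to 0 (15 higher, 14 lower), 1 with a 10 Mb running mean removed and 0 with every sequence as deposited (40 at an unadjusted p under 0.05). Leaving out 1 library gave 0 (without either Basal library) to 56 (without Late replicate 1). For Early versus Basal (40) it was 7 with every sequence as deposited, and 18 (without Basal replicate 1) to 58 without 1 library. For Late versus Early (29) it was 19 with the running mean removed, 0 with every sequence (37 unadjusted), and 27 to 43 without 1 library. Replicate numbers are shared by Basal and Late only as names (correlation of same-numbered deviations 0.0101). With a replicate block the counts were 22, 40 and 30.

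Of cluster means, quantile normalization gave -0.0098 for Early minus Basal on chromosome 2 and -0.42 in the second chromosome 13 cluster. Medians over bins gave 0.22 for Late minus Basal on chromosome 2, and -0.25 (Late) and -0.28 (Early) on chromosome 4, where every listed bin gave -0.13 and -0.15. Without bins next to a missing bin, an alternative chosen after seeing the data, chromosome 4 gave -0.25 and -0.30, and the second chromosome 13 cluster -0.61 in Early. For cluster minus flank, flanks of 1 Mb gave 0.14 (Late) and -0.11 (Early) on chromosome 2, -0.15 and -0.28 on chromosome 4, -0.18 and -0.11 in the first chromosome 13 cluster, and -0.37 (Late) in the second. Quantile normalization gave -0.086 and -0.065 in the first. Without the bins between the chromosome 13 clusters it was 0.025 and 0.16 in the first, and 0.14 and -0.52 in the second. Without 1 library, Late minus Basal on chromosome 2 ran from -0.017 to 0.086 and Early minus Basal in the first chromosome 13 cluster from -0.025 to 0.010.

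A sign change had to hold in all libraries of a group, so leaving out 1 library could not lower the count. Without 1 library sign changes ran from 3 to 6 (Late versus Basal), 2 to 4 (Early versus Basal) and 4 to 5 (Late versus Early). With all libraries they were 3, 2 and 2. Late versus Early had 5 with chromosome medians set to 0, and a margin of 0.1 left 1 in it and 1 in Early versus Basal. Of single bins not called with all libraries, chromosome 4 at 146.05 Mb was -0.0028 in Late with medians set to 0. Chromosome 2 at 176.9 Mb in Early ran from -0.25 to 0.049, and chromosome 13 at 67.75 Mb in Late from -0.60 to 0.030, without 1 library. Without Late replicate 1 the latter was called (limma adjusted p = 0.012), as was the rise on chromosome 2 at 177.3 Mb (0.38, limma adjusted p = 0.039). The cause of these changes was not tested. Depth is unknown, and Early rests on 1 library.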
